A study of Mus musculus with 20 samples.

Results

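The receptors described here are the mouse odorant receptor genes of chromosome 2 that are numbered below Olfr987. They were taken from the array's probe sets by 3 criteria, namely a row identifier for chromosome 2, a symbol made of Olfr and a number, and a number below that of Olfr987, with Olfr73, Olfr220, Olfr2, Olfr15, Olfr16 and Olfr17 left out. The rule used no measured value. It found 39 probe sets for 39 genes, among 1080 odorant receptor probe sets and 22206 gene probe sets on the array, and a further 242 receptors of chromosome 2 are numbered from Olfr987 upward. The RefSeq gene order of the 39, taken without any other gene, has 3 neighbourhoods, separated by more than 1 Mb without a member. These neighbourhoods hold 27 genes from Olfr338 to Olfr368, 8 genes from Olfr154 to Olfr74, and the 4 genes Olfr48, Olfr140, Olfr32 and Olfr142.

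The arrays came from mice with the S100a5-tauGFP reporter, in which tauGFP follows the expression of S100a5, a gene of mature olfactory sensory neurons that rises with neuronal activity. All 30 mice, of both sexes and 7 to 12 weeks old, were kept singly in chambers of clean air for 40 h at 3.1 L/min, and from 26 h onward received 10 s pulses every 20 min. The vehicle group received filtered air and the odor group, per the sample labels, an artificial cigarette smoke odor, while the design text of the series names bourgeonal instead. Mice were combined into 10 pools of 3, with 5 vehicle and 5 odor pools, and dissociated olfactory mucosa of each pool was sorted by flow cytometry into GFP+ and GFP- cells. Each of the 4 groups (vehicle GFP-, vehicle GFP+, odor GFP- and odor GFP+) therefore holds 5 arrays, numbered 1 to 5. All carry the reporter, no mouse went without the chamber, and a pool hides the spread between its mice.

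Odorant receptors are G protein-coupled receptors of the sensory neurons in the nose. Each mature neuron transcribes a single allele of a single receptor gene, and bound odorants raise cAMP through Gnal and Adcy3 and open a cyclic nucleotide-gated channel. A receptor's RNA in sorted cells therefore tracks the neurons that chose it, and in an activity reporter the GFP+ fraction is meant to collect the neurons that have been active. In these bulk samples fewer neurons with a receptor and less receptor RNA per neuron cannot be told apart. Most of the 39 have no ligand in common knowledge, whereas Olfr74, also called mOR-EV, is known as a vanillin and eugenol receptor and Olfr154 as a receptor for ketones.

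Probes for close relatives may share signal, so the starts of the coding regions are compared for the families MOR136 and MOR159. No such comparison is shown for MOR138 or MOR227, whose members the results also set against each other. RefSeq windows (GRCm38.p6) matched 36 of the 39 genes, and in 34 the annotated start was the ATG of the receptor itself, so these windows show coding sequence and no promoter. The older family name MOR136 covers 14 of the 27 genes of the first neighbourhood. Over the first 50 coding bases its 78 pairs with sequence shared a median of 36.5 identical bases without gaps, with a range from 13 to 50, whereas the 471 pairs from different families shared a median of 18, with a range from 9 to 36. In the lines below, capitals mark the bases at which a MOR136 gene differs from Olfr341.
Olfr341: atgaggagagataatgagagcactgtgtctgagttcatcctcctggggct
Olfr345: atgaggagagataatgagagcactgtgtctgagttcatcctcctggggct
Olfr342: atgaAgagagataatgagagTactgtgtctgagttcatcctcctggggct
Olfr346: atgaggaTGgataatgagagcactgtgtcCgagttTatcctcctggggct
Olfr339: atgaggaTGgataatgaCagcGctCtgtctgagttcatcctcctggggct
Olfr345 does not differ from Olfr341 over these bases, Olfr342 differs at 2, Olfr346 at 4 and Olfr339 at 5. The sequences of the array's probes were not used here, and how far relatives share signal was not tested.

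The 3 genes of family MOR159 are a further closely related group, and capitals mark the differences from Olfr358.
Olfr358: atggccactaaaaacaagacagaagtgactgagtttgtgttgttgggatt
Olfr360: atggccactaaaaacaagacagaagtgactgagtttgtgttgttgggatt
Olfr361: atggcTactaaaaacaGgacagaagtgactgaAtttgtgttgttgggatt
Olfr360 shares all 50 bases with Olfr358, and Olfr361 differs at 3. By contrast, the genes with the clearest differences outside the first neighbourhood, Olfr52, Olfr140 and Olfr142, are of 3 separate families. Their first 50 coding bases are shown with the start codon in capitals.
Olfr52: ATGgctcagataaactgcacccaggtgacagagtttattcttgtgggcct
Olfr140: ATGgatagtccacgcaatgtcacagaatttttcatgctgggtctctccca
Olfr142: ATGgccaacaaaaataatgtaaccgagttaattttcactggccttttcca
These stretches lie at chr2:86182060-86182109, chr2:90052273-90052322 and chr2:90252937-90252986 of GRCm38.p6, all on the minus strand, at the annotated starts of the 3 genes.

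All values are log2 signals as deposited, so a difference of 1 is a doubling. The 4 arrays of replicate 5, 1 per group, stand apart with median gene signals of 7.03 to 7.46 against 6.06 to 6.39 on the other 16, and counts are also given without them. Among the others, vehicle GFP- 1 (0.895), vehicle GFP+ 2 (0.946) and odor GFP- 2 (0.951) had the lowest mean correlation with their group. S100a5 was higher in GFP+ cells by 1.30 in vehicle pools (limma adjusted p = 0.0368) and by 2.15 in odor pools. Its vehicle call ended without vehicle replicate 2 (0.99), 3 (1.14) or 5 (1.31) or odor replicate 1 or 3 (1.30 each), and with quantile normalization (1.26). Of 10 mature sensory neuron markers, Omp among them, 0 differed between the fractions past the threshold. Their median change was 0.31 in vehicle and 0.29 in odor pools, against 0.09 and 0.08 over all probe sets. Omp, Gnal, Stoml3 and Gfy had signals near the top of the arrays' range, where a difference may be hidden. Stoml3 and Gfy reached 19.86 in vehicle GFP+ cells, level with the highest signal on any array. White blood cell markers followed the sort most closely, and 8 of 8 were lower in GFP+ cells in both conditions. Their mean signal ran from 14.88 to 15.11 in vehicle GFP-, 6.34 to 6.89 in vehicle GFP+, 14.23 to 14.71 in odor GFP- and 6.42 to 6.66 in odor GFP+ cells. Immature neuron markers were lower in GFP+ cells for 4 of 6 (Gap43, Gng8, Dpysl3 and Stmn1), sustentacular cell markers for 1 of 4 in vehicle pools and 0 in odor pools, and basal cell markers for 1 of 4 measured (Kit). The part of these other cells in the receptor differences was not tested.

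Signal near background gives no size of change. On each array the 95th percentile of 23 background control rows served as the background level, which was 6.59 to 6.89 on 16 arrays and 7.29 to 7.78 on those of replicate 5. A receptor was taken to be above background in a group when at least 4 of its 5 arrays exceeded that level. By this measure 18 of the 39 were above background in vehicle GFP-, 21 in vehicle GFP+, 20 in odor GFP- and 21 in odor GFP+ cells. 17 were above it in all 4 groups and 25 in at least 1. The 14 that reached it in no group were Olfr340, Olfr341, Olfr344, Olfr345, Olfr50, Olfr350, Olfr351, Olfr352, Olfr353, Olfr356, Olfr361, Olfr154, Olfr259 and the vanillin receptor Olfr74. The highest array value of Olfr74 was 6.59, in odor GFP- replicate 5, and its other 19 values were lower.

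The first comparison asked which of the receptors were more or less abundant in GFP+ than in GFP- cells of the same vehicle pool. In vehicle pools 14 of 39 were higher in GFP+ cells (35.9%) and 4 were lower (10.3%) at an adjusted p under 0.05 by limma, against 2.26% higher and 6.86% lower over all probe sets. The higher 14 were Olfr52, Olfr362, Olfr140, Olfr357, Olfr358, Olfr348, Olfr3, Olfr152, Olfr355, Olfr339, Olfr366, Olfr350, Olfr141 and Olfr361, with measured changes from 1.13 to 3.02. The lower 4 were Olfr346, Olfr142, Olfr341 and the ketone receptor Olfr154. The median change of the 39 was 0.51 against 0.09 for all probe sets. Receptors in general stood near these shares, since of the other 1041 on the array 33.6% were higher and 15.9% lower with a median of 0.52, and of the 242 with higher numbers on the same chromosome 36.8% and 17.4%.

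In odor pools, 9 of 39 were higher (23.1%) and 7 lower (17.9%), against 2.07% and 5.82% over all probe sets. Centring each array on its median, or quantile normalization, gave 12 higher and 6 lower. The other 1041 receptors had 30.7% higher and 17.1% lower. The 9 were Olfr52, Olfr140, Olfr348, Olfr362, Olfr357, Olfr152, Olfr3, Olfr366 and Olfr141, all of which also rose in vehicle pools. The lower 7 were Olfr346, Olfr341, Olfr142, Olfr365, Olfr154, Olfr353 and Olfr338. Without both pools numbered 5 the counts fell to 7 higher and 3 lower in vehicle pools and to 6 and 4 in odor pools. The calls lost were those of Olfr141, Olfr152, Olfr339, Olfr341, Olfr350, Olfr355, Olfr361 and Olfr366 in vehicle pools and of Olfr152, Olfr338, Olfr353, Olfr362, Olfr365 and Olfr366 in odor pools. Without the pools of the 3 arrays that correlated least they were 13 higher and 5 lower in vehicle pools and 11 and 8 in odor pools, an alternative chosen after seeing the data.

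**Figure D1:**
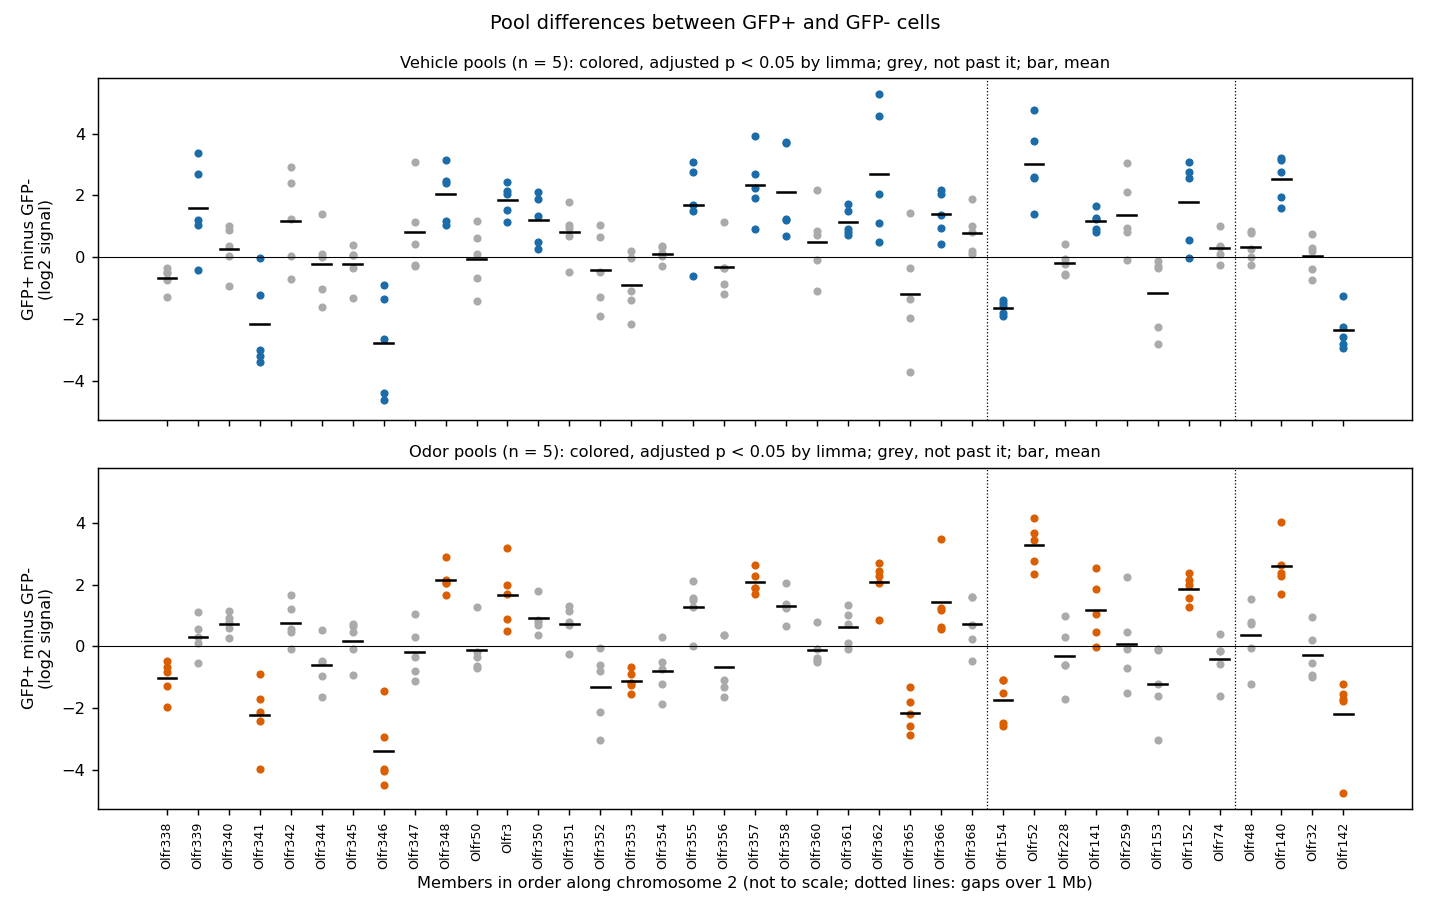
Each point is the log2 signal in GFP+ minus that in GFP- cells of 1 pool, for the 39 receptors in their order along chromosome 2, with vehicle pools above and odor pools below (5 pools each, bars are means). Colored receptors passed an adjusted p of 0.05 by limma. Those higher and lower in GFP+ cells lie among each other in the first neighbourhood in vehicle pools.

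Olfr52 of the second neighbourhood was higher in GFP+ cells in every pool of both conditions. In vehicle pools 1 to 5 its log2 signal was 5.51, 7.45, 5.51, 7.97 and 9.29 in GFP- cells and 10.26, 10.02, 9.26, 9.38 and 11.91 in GFP+ cells. The fractions overlapped narrowly, because the GFP- array of replicate 5 exceeded the lowest GFP+ value. In odor pools the values were 6.36, 6.52, 6.52, 6.12 and 8.84 in GFP- cells and 10.04, 9.97, 10.66, 8.87 and 11.18 in GFP+ cells, with no overlap. The change was 3.02 (SE 0.40, limma adjusted p = 0.000171) in vehicle and 3.27 (SE 0.40, limma adjusted p = 0.000103) in odor pools. Only 3 vehicle and 1 odor GFP- arrays were above background, so these sizes are uncertain on the lower side. Against background the bound for Olfr52 came to 5.63-fold higher in vehicle and 7.79-fold in odor GFP+ cells. Such bounds set the mean of the brighter fraction against the background level of each array, or the dimmer signal where that was higher. They describe group means, leave out sampling error and need not hold in each pool. Here and below, at least refers to the background level alone. For Olfr52 the 95% interval of the measured log2 change began lower, at 2.16 in vehicle and 2.41 in odor pools. Its bounds in log2 were 2.49 and 2.96.

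Olfr140 of the third neighbourhood had high signal in both fractions and still separated them. Its values in vehicle pools 1 to 5 were 9.73, 10.63, 9.67, 10.97 and 12.36 in GFP- cells and 12.93, 13.40, 12.80, 12.92 and 13.97 in GFP+ cells. No vehicle GFP- array reached the lowest GFP+ array. Odor pools gave 10.04, 8.91, 10.77, 11.39 and 12.56 in GFP- and 12.33, 12.93, 13.40, 13.76 and 14.24 in GFP+ cells, where the GFP- array of replicate 5 passed the lowest GFP+ array. The change was 2.53 (SE 0.32, limma adjusted p = 0.000128) in vehicle and 2.60 (SE 0.32, adjusted p = 0.000119) in odor pools.

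Olfr3, a MOR136 receptor, was also well above background on every array. In vehicle pools it measured 10.77, 10.94, 10.51, 10.66 and 12.24 in GFP- cells and 12.91, 12.47, 12.55, 13.11 and 13.39 in GFP+ cells, without overlap. In odor pools GFP- cells spread from 9.60 to 12.61 and GFP+ cells lay closely between 12.54 and 13.10, so that the fractions overlapped slightly. Its change was 1.86 (SE 0.33, limma adjusted p = 0.00202) in vehicle and 1.65 (SE 0.33, adjusted p = 0.00567) in odor pools.

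Olfr348, of the same family, differed widely from pool to pool and rose in each. Vehicle GFP- values were 7.17, 7.26, 6.05, 5.79 and 7.38, and GFP+ values were 10.33, 9.72, 7.24, 6.83 and 9.79. Pools 3 and 4 were low in both fractions, and in each pool the GFP+ array was the higher. The same held in odor pools, where GFP- values were 7.87, 5.57, 5.83, 5.14 and 8.20 and GFP+ values 9.92, 8.47, 7.99, 7.18 and 9.87. The measured change was 2.05 (SE 0.30, limma adjusted p = 0.000379) and 2.16 (SE 0.30, adjusted p = 0.000289) in vehicle and odor pools, and setting the fractions side by side without pairing them by pool ended both calls. As 2 of 5 GFP- arrays in each condition were above background, the change is also given as a bound, 3.08-fold in vehicle and 2.69-fold in odor pools. In vehicle pools the 95% interval of the measured change began lower, at 1.41 in log2 against 1.62 for the bound.

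In the MOR138 family Olfr357 rose from signal at background. Its vehicle GFP- values of 5.11, 6.18, 4.21, 5.28 and 7.20 were all under the background level, whereas GFP+ cells gave 7.02, 7.12, 8.13, 7.53 and 9.90, all above it. Because the lower side was at background, the size of this rise is a bound, and Olfr357 was at least 1.91-fold higher in vehicle GFP+ cells. The measured change was 2.35 (SE 0.33, limma adjusted p = 0.000292), and 2.07 in odor pools (adjusted p = 0.000939), where 1 of 5 GFP- arrays was above background and the bound was at least 2.10-fold. Its relative Olfr365 went the other way. It measured 7.45, 11.47, 10.57, 11.24 and 11.94 in vehicle GFP- and 8.89, 7.77, 10.20, 9.88 and 9.98 in vehicle GFP+ cells, a change of -1.19 that missed the threshold (limma adjusted p = 0.244). In odor pools GFP- cells gave 11.32, 9.90, 11.49, 11.47 and 12.26 and GFP+ cells 8.75, 8.59, 9.70, 9.29 and 9.40, without overlap, a fall of 2.14 in log2 units (change -2.14, SE 0.52, limma adjusted p = 0.02). The lone vehicle pool that rose was replicate 1.

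The remaining MOR138 genes, Olfr355 and Olfr366, were higher in vehicle GFP+ cells by 1.68 and 1.41. Olfr362, the only member of its family here, rose by 2.70 (SE 0.58, limma adjusted p = 0.00741) in vehicle and 2.07 (SE 0.58, adjusted p = 0.0444) in odor pools, with a wide spread. Its vehicle GFP- values were 6.21, 9.07, 7.41, 10.90 and 10.20, and its GFP+ values 11.48, 9.56, 11.98, 12.01 and 12.25, so that the array of replicate 2 alone brought the fractions into overlap.

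Within the MOR159 family, Olfr358 and Olfr361 rose in vehicle pools and Olfr360 did not pass the test. Olfr358 measured 7.11, 9.13, 7.63, 8.82 and 10.77 in vehicle GFP- and 10.84, 9.81, 11.30, 10.03 and 12.02 in vehicle GFP+ cells, a change of 2.11 (SE 0.42, limma adjusted p = 0.00431). Olfr360, with the same first 50 coding bases, measured 9.93, 12.24, 11.47, 12.75 and 12.85 in GFP- and 12.10, 11.16, 12.19, 12.66 and 13.69 in GFP+ cells. Its change was 0.51 (95% interval -0.28 to 1.30), and 3 of 5 vehicle pools were higher. Neither gene passed in odor pools, where Olfr358 changed by 1.32 (limma adjusted p = 0.0848) and Olfr360 by -0.12. Olfr358 did pass there under 5 of 20 alternatives, with quantile normalization (1.24), centred arrays (1.53), array weights (1.27), or without vehicle replicate 1 or 2 (1.32 each). Olfr361 changed by 1.13 in vehicle pools (limma adjusted p = 0.00858), yet was above background on no more than 3 of 5 arrays in any group.

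The 4 receptors that were lower in GFP+ cells in both conditions were at background there on every array. Olfr346, a MOR136 gene, measured 5.45, 8.71, 5.76, 6.68 and 9.08 in vehicle GFP- and 4.56, 4.10, 4.41, 4.05 and 4.68 in vehicle GFP+ cells. The fractions did not overlap, although only replicates 2 and 5 of the GFP- arrays were above background. Odor pools gave 8.28, 5.92, 7.42, 8.26 and 9.79 in GFP- and 4.31, 4.49, 4.48, 4.22 and 5.32 in GFP+ cells. The measured change was -2.78 (SE 0.54, limma adjusted p = 0.00392) in vehicle and -3.37 (SE 0.54, adjusted p = 0.00101) in odor pools. Against background Olfr346 was at least 2.08-fold lower in odor GFP+ cells. In vehicle pools the bound came to 1.20-fold but rested on the 2 GFP- arrays above background (8.71 and 9.08). With values floored at the background median the vehicle call ended (change -1.52).

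Olfr142, which shares the MOR227 family name with Olfr32, was lower in all 10 pools. Its values were 7.94, 7.27, 7.50, 7.26 and 8.07 in vehicle GFP- and 5.01, 6.03, 4.71, 5.01 and 5.49 in vehicle GFP+ cells, far apart and narrow on both sides. In odor pools GFP- cells gave 6.92, 6.87, 6.46, 6.99 and 9.91 and GFP+ cells 5.72, 5.12, 4.93, 5.29 and 5.17. The GFP- array of replicate 5 stood apart, and without that pool the call held. The change was -2.36 (SE 0.43, limma adjusted p = 0.00225) in vehicle and -2.18 (SE 0.43, adjusted p = 0.00453) in odor pools. Against background Olfr142 was at least 1.66-fold lower in vehicle pools. In odor pools the bound came to 1.46-fold but rested on the GFP- array of replicate 5. Only 3 of the 5 odor GFP- arrays were above background, and those other than replicate 5 lay at 6.46 to 6.99. Olfr32, the relative of Olfr142, was well above background in both fractions (means 10.30 in vehicle GFP- and 10.33 in vehicle GFP+ cells) and changed by 0.03 (95% interval -0.62 to 0.68).

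Olfr341 and Olfr154 passed the test with group means under the background level in both fractions, so the sizes of their changes are not given. Olfr341 measured 4.72, 7.69, 5.99, 7.37 and 7.63 in vehicle GFP- and 4.69, 4.68, 4.78, 4.00 and 4.45 in vehicle GFP+ cells (limma adjusted p = 0.0107, and 0.01 in odor pools). Its GFP- arrays of replicates 2, 4 and 5 were above background and replicate 1 was level with the GFP+ array of the same pool. Olfr345, alike over its first 50 coding bases, stayed at background in every group with vehicle means of 4.09 in GFP- and 3.87 in GFP+ cells. The ketone receptor Olfr154 gave 6.47, 6.40, 5.62, 6.77 and 6.98 in vehicle GFP- and 5.08, 4.85, 3.73, 4.97 and 5.51 in vehicle GFP+ cells (limma adjusted p = 0.000614), none of them above background. In odor pools 1 of its 5 GFP- arrays was above background, and the test again passed (limma adjusted p = 0.000418). Flooring at the background median ended the calls of both genes in both conditions.

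**Figure D2:**
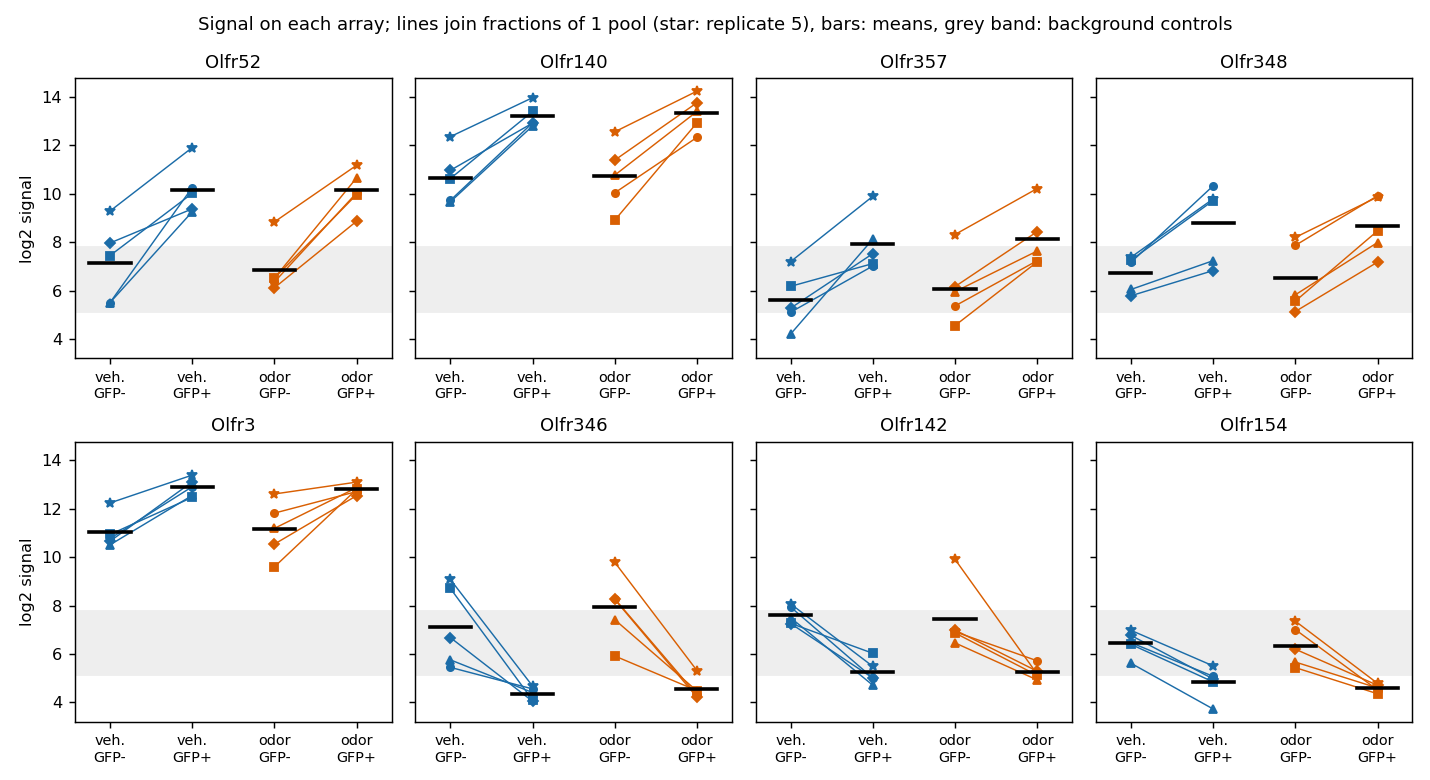
Log2 signal of 8 receptors on all 20 arrays, with a line joining the GFP- and GFP+ arrays of a pool, vehicle in blue and odor in orange, stars for replicate 5 and black bars for group means. The grey band runs from the lowest background median to the highest 95th percentile of the background controls. Olfr140 and Olfr3 lie above the band in both fractions, whereas Olfr346, Olfr142 and Olfr154 in GFP+ cells lie within or below it.

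Of the 21 receptors called in either condition, 5 reached background level in no group by the criterion above, namely Olfr341, Olfr350, Olfr353, Olfr361 and Olfr154. Vehicle bounds came to 1.28-fold higher in GFP+ cells for Olfr350 and 1.30-fold for Olfr152. In odor pools Olfr152 was at least 2.22-fold higher in GFP+ cells. Both vehicle bounds leaned on the highest GFP+ array, at 9.09 for Olfr350 (replicate 5) and 9.70 for Olfr152. The lowest vehicle GFP+ arrays lay at 6.17 and 6.06. Each of these genes was above background on 3 of 5 vehicle GFP+ arrays. Olfr338 was at least 1.19-fold lower in odor GFP+ cells. The GFP+ and GFP- arrays did not overlap for 2 higher and 3 lower receptors in vehicle pools, against 0.829% and 3.91% of all probe sets, and for 2 higher and 5 lower in odor pools, against 1.04% and 4.02%. Every pool was higher in GFP+ cells for 12 of the 39 receptors in vehicle pools (5.64% of all probe sets) and for 12 in odor pools (14.1%). Every pool was lower for 6 and for 9 (8.55% and 10.8% of all probe sets).

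A number of calls ended when a single pool was left out, in some cases with a change as large as before. In vehicle pools 8 of the 14 higher and 3 of the 4 lower calls held whichever single pool was left out. Olfr339 lost its call without vehicle replicate 1 (1.30), 3 (1.14) or 5 (1.72), and its replicate 4 was the pool that did not rise. Olfr355 lost it without vehicle replicate 1 (1.41), 3 (1.73), 4 (1.68) or 5 (1.33). Olfr366 lost it without vehicle replicate 1 (1.21), 3 (1.24), 4 (1.52) or 5 (1.41) or odor replicate 3 (1.41). Olfr141 lost it without vehicle replicate 2 (1.06), 3 (1.25), 4 (1.17) or 5 (1.16). Olfr350 lost it without vehicle replicate 3 (1.00), 4 (1.19) or 5 (1.05), Olfr152 without vehicle replicate 3 (1.47) or 5 (1.60), and Olfr341 without vehicle replicate 4 (limma adjusted p = 0.059) or 5 (limma adjusted p = 0.0631).

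In odor pools 6 of 9 higher and 3 of 7 lower calls held without any single pool. Olfr141 lost its call without odor replicate 2 (1.00), 3 (0.84) or 4 (1.21) or vehicle replicate 4 or 5 (1.18 each), vehicle pools entering through the shared estimate of the spread. Olfr362 lost it without each odor pool in turn, with changes from 1.91 to 2.37, and without vehicle replicate 5 (2.07). Olfr366 lost it without odor replicate 2 (0.91), 3 (1.47) or 5 (1.48) or vehicle replicate 4 or 5 (1.42 each). Olfr353 lost it without each odor pool in turn, with changes from -1.22 to -1.0, and without vehicle replicate 4 (-1.11). Olfr365 lost it without odor replicate 1 (-2.03), 3 (-2.23), 4 (-2.13) or 5 (-1.96), Olfr338 without odor replicate 1 (-0.98) or 5 (-0.81), and Olfr341 without odor replicate 1 (limma adjusted p = 0.0574). Not called in odor pools in the main fit, Olfr350 passed there under 5 of 20 alternatives and Olfr355 under 4, quantile normalization and array weights among them. Of the 13 receptors called in both conditions, Olfr3, Olfr52, Olfr140 and Olfr142 kept their calls in both under all 20 alternatives.

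Vehicle and odor pools came from different mice and gave similar differences. All 9 receptors higher in odor pools were also higher in vehicle pools, while 64.3% of the 14 higher in vehicle pools passed in odor pools. All 4 lower in vehicle pools were lower in odor pools, which is 57.1% of the 7 lower there. None was called in opposite directions, 18 were called in neither condition, and 33 of 39 had the same sign in both. Across the 39 receptors, which share their arrays, the changes in vehicle and odor pools had r = 0.956 and rho = 0.944, given as a description. The median absolute gap between the changes was 0.32.

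**Figure D3:**
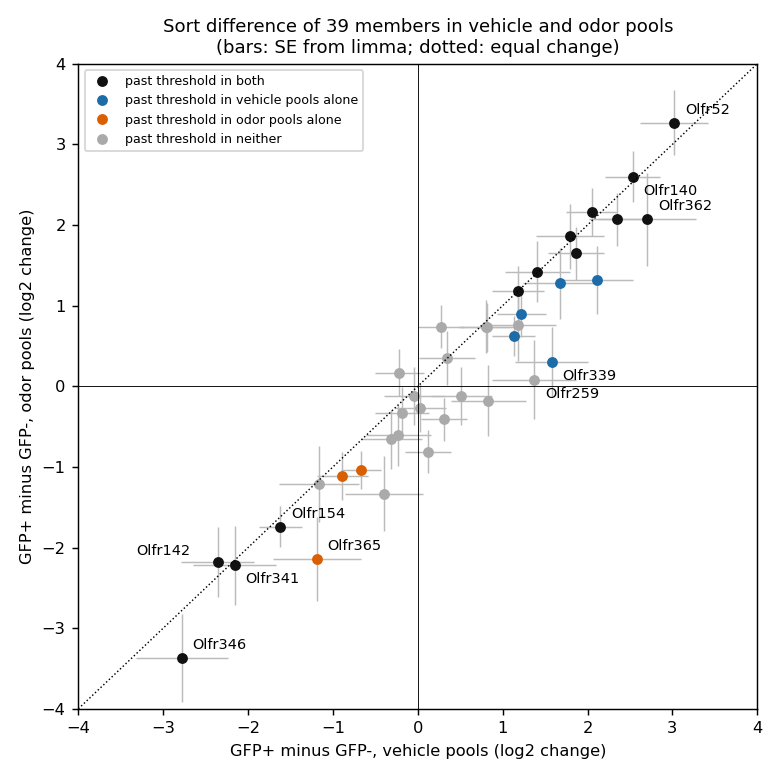
The log2 change from GFP- to GFP+ cells in vehicle pools (x axis) and odor pools (y axis) for the 39 receptors, with SE bars from limma and a dotted line where both are equal. Black points passed the threshold in both conditions, blue in vehicle pools alone, orange in odor pools alone and grey in neither. Points follow the dotted line, and Olfr339 (1.58 and 0.30) lies well below it. Olfr259 also lies below it but was above background in no group.

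Calls were also counted for receptors next to each other on the chromosome. Whether neighbours were called together more or less often than in a random order was not tested. In vehicle pools the first neighbourhood had 10 higher and 2 lower of 27 (median 0.80), the second 3 and 1 of 8 (median 0.75) and the third 1 and 1 of 4 (median 0.18). In odor pools these were 5 and 5, 3 and 1, and 1 and 1. Among the 26 pairs of neighbours in the first, 3 were called the same way in vehicle pools, namely Olfr3 with Olfr350, Olfr357 with Olfr358 and Olfr361 with Olfr362, and 0 were called in opposite ways. In odor pools 0 were called the same way and 2 in opposite ways, Olfr365 with its neighbours Olfr362 and Olfr366. The median absolute difference in change was 1.56 between neighbours and 1.28 over the other 325 pairs there, a description with no test. In the second neighbourhood Olfr154 and Olfr52 follow each other in this order and were called in opposite directions in both conditions. On the chromosome they are not adjacent stretches, with annotated starts at chr2:85664406-85664455 and chr2:86182060-86182109 of GRCm38.p6.

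The largest family held receptors of both directions. The 14 MOR136 genes split into 4 higher (Olfr348, Olfr3, Olfr339 and Olfr350), 2 lower (Olfr346 and Olfr341) and the rest not past the threshold in vehicle pools, with a median of 0.12. In odor pools 2 were higher and 3 lower. The other 13 genes of the first neighbourhood had 6 higher and 0 lower in vehicle pools (median 0.81) and 3 and 2 in odor pools. Of the genes printed above, Olfr346 changed by -2.78 and Olfr339 by 1.58, while Olfr342 had a change of 1.18 that did not pass (limma adjusted p = 0.153). The 78 MOR136 pairs differed in vehicle change by a median of 1.54, the 90 pairs of any same family by 1.50 and the 471 pairs of different families by 1.44.

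Among receptors above background in both vehicle fractions, the 5 with the smallest differences between them were Olfr32, Olfr228 (-0.19), Olfr48 (0.34), Olfr360 and Olfr368 (0.80). Olfr228 had vehicle means of 8.28 in GFP- and 8.09 in GFP+ cells, with a 95% interval of the change from -0.87 to 0.50. Olfr48 measured 8.44, 10.47, 9.30, 10.25 and 11.28 in vehicle GFP- and 8.70, 11.32, 9.06, 10.25 and 12.07 in vehicle GFP+ cells, so that its pools varied more than its fractions. Olfr368 rose in 5 of 5 vehicle pools and its change missed the threshold (limma adjusted p = 0.203). The intervals of these 5 leave room for differences of 0.5 or more in at least 1 direction.

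The second question of the design is whether the odor changed the difference between the fractions. None of the 39 receptors was called (limma, 0 of 22206 probe sets, 0%). Of all probe sets 1.21% had an unadjusted p under 0.05, fewer than chance gives at that level, so the test could miss effects. Among the 39 receptors 1 had such a p. That receptor was Olfr354 of family MOR127, whose difference was 0.12 in vehicle and -0.81 in odor pools. Its vehicle values were 7.45, 7.37, 6.71, 6.59 and 8.38 in GFP- and 7.17, 7.71, 6.85, 6.97 and 8.42 in GFP+ cells. Its odor values were 7.44, 6.75, 7.29, 7.91 and 8.73 in GFP- and 6.71, 7.05, 6.78, 6.04 and 7.51 in GFP+ cells. Fractions overlapped in both conditions, and 4 of 5 vehicle pools but 1 of 5 odor pools were higher in GFP+ cells. The odor effect was -0.93 (95% interval -1.74 to -0.11, limma adjusted p = 1).

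The next smallest p-values belonged to Olfr339, Olfr74, Olfr259 and Olfr347, all negative. Olfr339 measured 7.55, 8.60, 6.62, 8.71 and 9.39 in vehicle GFP-, 10.25, 9.82, 9.98, 8.30 and 10.42 in vehicle GFP+, 8.38, 7.91, 7.94, 8.87 and 9.71 in odor GFP-, and 8.94, 8.20, 9.04, 8.33 and 9.81 in odor GFP+ cells. Only its vehicle GFP+ group stood higher, apart from replicate 4, and the odor effect was -1.28 (95% interval -2.60 to 0.03, limma adjusted p = 1). For Olfr74 the effect was -0.73 (95% interval -1.55 to 0.10) and for Olfr259 -1.29 (-2.79 to 0.21), both with signal at background. Olfr347 had an effect of -1.01 (95% interval -2.35 to 0.33).

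Over the 39 the median odor effect was -0.27, against 0.01 for all probe sets and -0.13 for the other 1041 receptors. It was negative for 30 of 39 (76.9%), compared with 641 of 1041 other receptors and 48.8% of all probe sets. The receptors share pools, so these counts are a description. The 95% intervals reached 0.73 to 1.77 to either side of the estimate, so effects of that size could not be told from none.

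**Figure D4:**
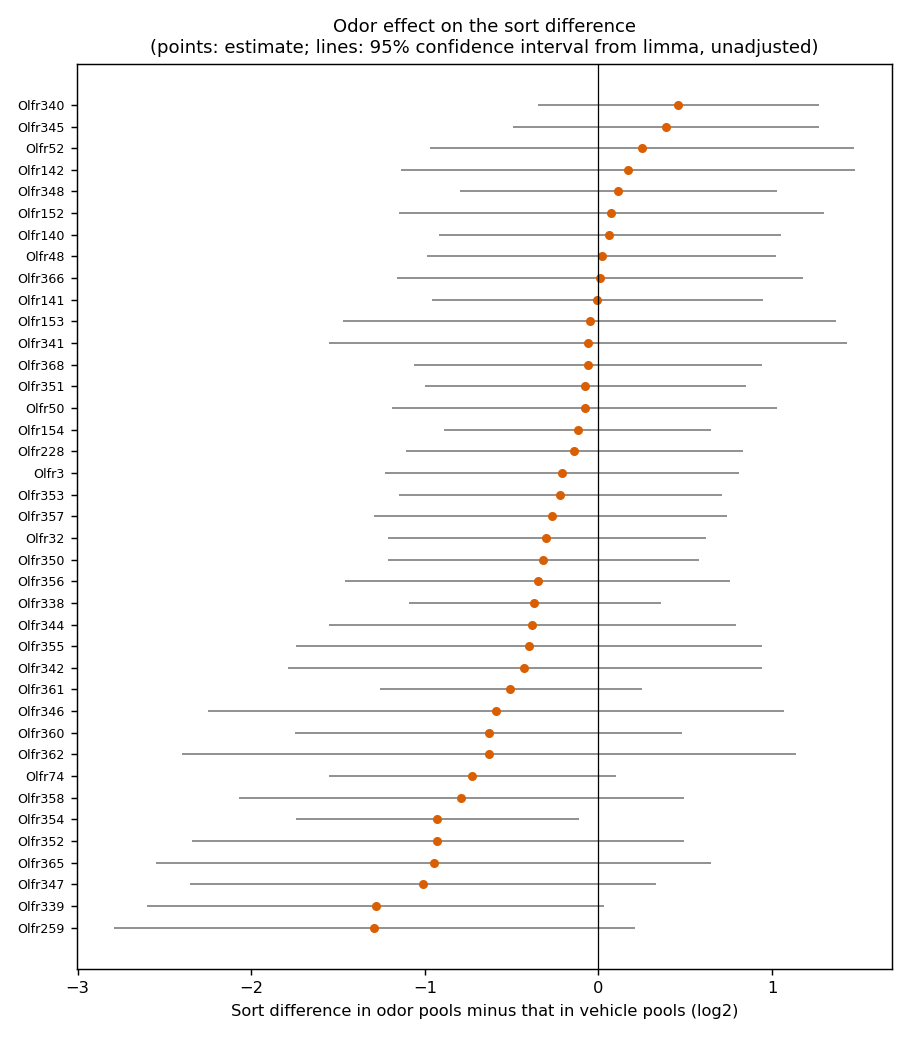
The difference between GFP+ and GFP- cells in odor pools minus that in vehicle pools (log2) for each of the 39 receptors, ordered by size, with 95% intervals from limma (5 pools per condition). Of the 39 estimates 30 lie below zero, and the interval of Olfr354 alone does not include zero.

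Odor was compared with vehicle directly in main fits without a replicate block. By limma 0 of 39 receptors were called in GFP+ cells and 0 in GFP- cells (0% of all probe sets in either). In these fits 0 had an unadjusted p under 0.05 in either fraction (0.275% and 0.135% of all probe sets). Chance alone gives a larger share at that level, so these fits were conservative and could miss changes with odor. With the replicate number as a block, 6 receptors had an unadjusted p under 0.05 in GFP+ cells against 3.69% of all probe sets in that fit, and 0 were called. The median change with odor was -0.10 in GFP+ cells, where 27 of 39 were negative, and 0.16 in GFP- cells, where 25 were positive. In GFP+ cells the smallest p-values without the block were those of Olfr339 (-0.89), Olfr354 (-0.60) and Olfr152 (0.74). In GFP- cells they were those of Olfr259 (0.70), Olfr48 (0.71) and Olfr152 (0.66). Olfr152 was thus higher with odor in both fractions by similar amounts without passing the test, and its change between fractions was 1.79 in vehicle and 1.86 in odor pools.

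Few of the genes that receptors work with in the neuron differed between the fractions. Of 13 signal transduction genes, Gnal, Adcy3 and the channel subunits Cnga2 and Cnga4 among them, 0 passed the test in either condition, with a median of 0.51 in vehicle and 0.52 in odor pools. Of 5 genes for receptor export and stability 1 was lower, the heat shock gene Hspa1a (-2.31 in vehicle pools, limma adjusted p = 0.00336), while the receptor transporters Rtp1 and Rtp2 had changes of 0.64 and 0.87 that did not pass. Of 10 genes tied to receptor choice 1 was lower, the lamin B receptor gene Lbr (-2.18 in vehicle pools). Of 7 measured activity-related genes 3 were higher in vehicle pools, S100a5 itself, Pcp4l1 (2.12) and Sema7a (1.83), and 1 was lower, the receptor kinase gene Grk3, whose means of 5.45 in GFP- and 4.42 in GFP+ cells were both at background. In odor pools 2 were higher and 1 lower. Omp changed by 0.22 in vehicle pools (limma adjusted p = 0.717), with signal near the top of the arrays' range like that of Gnal.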

How the data were processed

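Labelled cRNA from 50 to 100 ng of RNA per sample was hybridised to Clariom S arrays, per the labels. The submitters' processing notes name Affymetrix Expression Console. For its version, its normalization and the genome build, the entry is: not given in the sources used here. Values entered the tests as the log2 signals that the authors deposited. Of 28846 rows, 6640 controls were left out and 22206 gene probe sets tested without a filter. Of these 19572 had 1 gene symbol, 0 several and 2634 none.

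The differences between GFP+ and GFP- arrays of each pool entered 1 limma 3.58.1 fit (lmFit, eBayes, R 4.3.3) for the sort in vehicle pools, in odor pools and the difference of both. Odor was compared with vehicle in each fraction on 10 arrays. P-values were adjusted by Benjamini-Hochberg over all probe sets at 0.05. That both fractions of a number and condition are 1 pool was read from the labels. On simulated data for the sort in vehicle pools (22206 probe sets) 29 of 100 2-fold and 82 of 100 4-fold changes were recovered, with 5.93% false calls. The simulation used independent normal noise and changed far fewer probe sets than were called in the data. Its recovery therefore need not hold for these data.

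Same-numbered odor and vehicle arrays deviated together in GFP+ cells (correlations 0.25, 0.52, 0.35, 0.16 and 0.86). In GFP- cells not all did (0.14, -0.38, 0.28, 0.20 and 0.84), although those of replicate 5 clearly did. In the pool differences the correlations were -0.31, -0.48, 0.16, -0.14 and 0.21. Both fractions come from the same pools, so whether the numbers pair odor with vehicle pools was not settled. The main fits held no replicate block, and fits with one are given as an alternative.

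Receptors were named by rule, up to 12 called in each direction by size in vehicle pools and 5 more in odor pools, those with the smallest p for odor, the 5 least changed above background and the ends of the neighbourhoods. Others complete a count or family. Likeness between receptors was planned on proteins and was computed on the first 50 coding bases instead. The receptors and lists were chosen with earlier results of these data known. Alternatives were other scalings, filters, weights, floors, blocks and left-out pools. The number of arrays limits the precision.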

Additional observations from a re-analysis of the deposited data

Results flagged for a closer look

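Among 174 sets of 5 values (29 named receptors, 4 groups of arrays and 2 sets of pool differences each) 10 held a value far from the other 4, and chance gives about 5% of sets such a value. Of the 10, 7 came from replicate 5, whose arrays had higher signal throughout, 2 from replicate 2 and 1 from replicate 4. In GFP- cells Olfr3 reached 12.24 on vehicle array 5 (others 10.51 to 10.94), Olfr52 8.84 on odor array 5 (others 6.12 to 6.52) and Olfr142 9.91 on odor array 5 (others 6.46 to 6.99). That last array gave Olfr142 a difference of -4.75 in odor pool 5, where the other pools had -1.75 to -1.20.

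In GFP+ cells Olfr259 reached 8.39 on odor array 5, with the others at 3.35 to 4.35. Olfr346 reached 5.32 on odor array 5 (others 4.22 to 4.49) and Olfr366 11.70 (others 9.47 to 9.69). Olfr339 was low at 8.30 on vehicle array 4 (others 9.82 to 10.42) and Olfr362 at 9.56 on vehicle array 2 (others 11.48 to 12.25). The difference of Olfr366 in odor pool 2 was 3.47, against 0.57 to 1.23 in the other pools.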

How the results depend on the processing

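Counts of receptors higher in vehicle pools (14) became 7 without both pools numbered 5 and 4 with fractions unpaired, and 8 to 15 without single pools. Those lower in vehicle pools (4) became 7 with array weights and 1 with a floor at the background median, and 3 to 6 without single pools. In odor pools the higher count (9) became 3 with fractions unpaired and 6 to 12 without single pools, and the lower count (7) became 4 without both pools numbered 5, 4 with fractions unpaired and 3 to 7 without single pools. With the replicate number as a block the counts were 13 higher and 5 lower in vehicle pools and 7 and 6 in odor pools, and 0 in the comparisons of odor with vehicle, as in every alternative run for them (0 to 0 without single pools). Centring the arrays moved the median of all probe sets to 0.33 in vehicle and 0.29 in odor pools. The block ended the calls of Olfr366 and Olfr141 in both conditions, of Olfr365 and Olfr353 in odor pools and of S100a5 in vehicle pools. No called change turned its sign under an alternative, whereas uncalled values near zero did, those of Olfr32 (-0.15 without vehicle replicate 4), Olfr228 (0.05 with centred arrays) and Omp (-0.02 without vehicle replicate 1) in vehicle pools. Signal near background limits the sizes of the lower receptors, and 5 pools per condition limit the odor effect.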
